A study of Homo sapiens with 96 samples.

Results

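The genes described are 43 whose products copy DNA in S phase or carry cells through G2 and mitosis, out of 19775 genes measured on the arrays. The genes were listed by function, 19 for S phase and 24 for G2 and M phase, and each was read by 1 probe set, the one highest on average across the HaCaT construct arrays. All 43 had a probe set, so none was left out, and no filter on low values was applied. Both lists are described apart.

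The series measured gene expression on 96 Affymetrix Human Genome U133 Plus 2.0 arrays. HaCaT, an immortalised line of human skin keratinocytes, had been transduced by lentivirus and selected with puromycin. From a CMV promoter, 3 lines carried 1 gene each, namely wild-type EGFR (line HaCaT-EGFR), an HRAS mutant (line HaCaT-HRAS) and a PIK3CA mutant (line HaCaT-PIK3CA). HaCaT-Mock was the control line. Each line was treated with the vehicle PBS or with an inhibitor of the epidermal growth factor receptor, namely afatinib (10 nM), gefitinib (100 nM) or the antibody cetuximab (100 nM). Separate arrays held cells given siRNA against EGFR (siEGFR) or a scramble siRNA, the latter also together with PBS or an inhibitor. PBS alone had 11 arrays (HaCaT-EGFR 2, the other lines 3 each), and the inhibitors alone had 35 arrays, 3 per inhibitor and line apart from 2 for gefitinib in HaCaT-PIK3CA. Scramble and siEGFR had 12 arrays each, 3 per line. Scramble with PBS had 7 arrays, 1 of them HaCaT-Mock, and scramble with an inhibitor had 12, 1 per inhibitor and line. The other 7 arrays held 3 squamous carcinoma lines, SCC1 (2 arrays), SCC25 (2 arrays) and FaDu (1 untreated, 1 under PBS), and parental HaCaT (1 array). The labels do not say whether the arrays of a group came from separate cultures, so the p-values cover only the spread among these arrays, which may be technical.

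DNA replication is licensed when CDC6 and CDT1 load the ring of MCM2 to MCM7 onto origins, and it starts once CDC45 and the GINS complex turn that ring into an active helicase. Deoxynucleotide synthesis, by ribonucleotide reductase (RRM1, RRM2), thymidylate synthase (TYMS) and thymidine kinase (TK1), supplies the forks, where PCNA holds the polymerases and FEN1 trims the lagging strand. Many of these genes are known targets of E2F transcription factors, which growth factor signals release from the RB family. Genes of G2 and mitosis are transcribed later, and many are known to be held down outside G2 and M by the DREAM complex, which binds a short element called CHR, while NF-Y binds CCAAT boxes in the same promoters. Their products include the cyclin B and CDK1 kinase that triggers mitosis, the Aurora and Polo kinases of the spindle, and the checkpoint proteins that delay chromosome separation. In keratinocytes, signalling from the epidermal growth factor receptor is a main drive to proliferate.

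The promoters of 37 members (17 S phase and 20 G2 and M phase) were in the reference table. The windows below are shown because they hold an E2F motif or CHR, whose shares differ between the lists. CCAAT, common in both lists, is marked in the G2 and M phase windows alone. All are from RefSeq on GRCh38.p14, written 5′ to 3′ on the strand of the gene. For 6 S phase genes, capitals mark an E2F motif (TTTCCCGC, TTTCGCGC, TTTGCCGC or TTTGGCGC, on either strand). The windows were MCM3 (chr6:52284897-52284928, minus strand), MCM6 (chr2:135876510-135876607, minus strand), TYMS (chr18:657602-657633, plus strand), E2F1 (chr20:33686386-33686430, minus strand), GINS2 (chr16:85688966-85688997, minus strand) and UHRF1 (chr19:4909475-4909500, plus strand). The neighbouring motifs in MCM6 overlap each other.
MCM3: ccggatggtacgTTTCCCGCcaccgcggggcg
MCM6: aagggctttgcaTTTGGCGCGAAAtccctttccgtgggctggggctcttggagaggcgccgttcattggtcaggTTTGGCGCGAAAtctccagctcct
TYMS: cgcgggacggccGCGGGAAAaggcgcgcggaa
E2F1: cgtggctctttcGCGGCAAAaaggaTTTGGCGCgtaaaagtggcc
GINS2: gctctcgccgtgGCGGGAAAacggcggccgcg
UHRF1: tgccgagttttcGCGGGAAAaaaatc

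For 7 G2 and M phase genes, capitals mark CHR (TTTGAA) and CCAAT motifs on either strand. The windows were CDK1 (chr10:60778158-60778197, plus strand), CCNB2 (chr15:59105014-59105134, plus strand), CDC20 (chr1:43358869-43358942, plus strand), KIF11 (chr10:92593065-92593119, plus strand), KIF23 (chr15:69414273-69414311, plus strand), MKI67 (chr10:128126431-128126533, minus strand) and PLK1 (chr16:23678804-23678877, plus strand). In MKI67 a CHR and a CCAAT motif overlap.
CDK1: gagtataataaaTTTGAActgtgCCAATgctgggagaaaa
CCNB2: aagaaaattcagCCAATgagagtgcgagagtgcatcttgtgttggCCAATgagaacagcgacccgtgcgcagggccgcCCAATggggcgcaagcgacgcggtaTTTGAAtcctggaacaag
CDC20: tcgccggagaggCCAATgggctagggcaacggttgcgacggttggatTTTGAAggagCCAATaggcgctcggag
KIF11: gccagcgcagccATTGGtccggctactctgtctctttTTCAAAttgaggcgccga
KIF23: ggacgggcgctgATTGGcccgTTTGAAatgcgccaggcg
MKI67: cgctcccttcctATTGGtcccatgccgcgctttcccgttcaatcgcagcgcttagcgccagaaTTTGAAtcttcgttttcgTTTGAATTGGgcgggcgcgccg
PLK1: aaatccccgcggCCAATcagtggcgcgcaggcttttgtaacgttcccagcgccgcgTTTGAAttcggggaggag

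Over the window from 250 bases before to 50 bases after the start, an E2F motif lay in 64.7% of the S phase promoters and 15% of the G2 and M phase promoters, against 3.33% of the promoters of 27305 genes. CHR lay in 5.88% of the S phase promoters, 60% of the G2 and M phase promoters and 15.4% of all. CCAAT was common to both lists, at 70.6% and 85%, against 35.7% of all promoters. CHR and CCAAT together lay in 5.88% of the S phase promoters, 55% of the G2 and M phase promoters and 6.08% of all. Both strands were searched and overlapping matches were counted. A match is a description of the letters and not a binding site.

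Arrays fell into the labels' batches J (53 arrays), E (16), M (26) and P (1), and batch was a term of every fit. The log2 difference between the 3′ and 5′ probe sets of ACTB, a sign of RNA quality, was 0.995 to 1.84 in batch J apart from 1 array at 3.50. It was 1.20 to 1.65 in batch E, 0.095 to 0.587 in batch M and 2.65 on the batch P array. The array at 3.50, HaCaT-HRAS gefitinib 1, together with HaCaT-HRAS gefitinib 2 and HaCaT-PIK3CA afatinib 1, took low array weights (0.0578, 0.02 and 0.107) and is treated as in doubt. Of the keratinocyte markers, 9 of 9 measured had a mean above 6.10 (log2), the median over all genes, as did 7 of 11 suprabasal differentiation markers and 2 of 17 markers of other cell types. The probe set of EGFR fell by 1.92 (SE 0.048, adjusted p = 8.1e-37) with siEGFR. The probe sets of EGFR, HRAS and PIK3CA did not pass the test in the lines that carry those constructs (log2 changes of -0.0006, -0.22 and 0.077), and whether these probe sets read the introduced coding sequence was not analysed, so they check nothing about the constructs.

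Under PBS, S phase genes were lower in HaCaT-HRAS than in HaCaT-Mock, and no member changed in HaCaT-EGFR or HaCaT-PIK3CA. In HaCaT-HRAS 8 of 19 S phase genes and 3 of 24 G2 and M phase genes fell and none rose, at an adjusted p under 0.05 in limma, while 9.34% of all genes fell. GINS2, a subunit of the GINS complex of the replicative helicase, fell most, by 0.97 on the log2 scale (SE 0.094, adjusted p = 4.9e-12), so that its level fell by 48.9%. TK1, which salvages thymidine, changed by -0.46 (SE 0.066, adjusted p = 1.9e-07) and MCM6, a subunit of the helicase ring, by -0.39 (SE 0.056, adjusted p = 2.3e-07). The other S phase genes that fell were MCM2 (-0.40), MCM3 (-0.40), MCM4 (-0.29), MCM5 (-0.30) and RRM1 (-0.32), so that 5 of the 6 subunits of the ring were lower. Only RRM2 lay above 0, at 0.046 (adjusted p = 0.84).

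The arrays show the size of these steps against their spread. MCM2, a subunit of the ring, read 9.88, 10.02 and 10.06 in the 3 HaCaT-Mock PBS arrays and 9.60, 9.57 and 9.85 in the 3 HaCaT-HRAS PBS arrays (log2, the first 2 of each in batch J). Every HaCaT-HRAS array lay below every HaCaT-Mock array for MCM2. CDC6, the loader of the ring, read 9.29, 9.32 and 9.10 in HaCaT-Mock and 9.23, 9.23 and 9.29 in HaCaT-HRAS, with a fitted change of -0.078 (adjusted p = 0.67). The arrays of both lines overlap for CDC6 over the batches, though in batch J both HaCaT-HRAS arrays lay lower.

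Among the G2 and M phase genes, the 3 that fell in HaCaT-HRAS were BIRC5, survivin of the chromosomal passenger complex (-0.39, SE 0.095, adjusted p = 0.0018), KIF20A, a kinesin of cytokinesis (-0.40, SE 0.13, adjusted p = 0.02), and CCNA2, cyclin A2 (-0.34, SE 0.11, adjusted p = 0.03). TTK, a kinase of the spindle checkpoint, lay highest above 0, at 0.14 (adjusted p = 0.42). The median change was -0.19 over the S phase list, with 18 of 19 below 0, and -0.14 over the G2 and M phase list, with 22 of 24 below 0, against -0.0036 over all genes. Within batch J, which holds 2 arrays of each line, the medians were -0.22 and -0.17. Without the array HaCaT-HRAS PBS 2, 7 of the 43 members were called in place of 11. As bulk samples, these arrays cannot tell fewer cells in a phase apart from less RNA per cell.

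In HaCaT-EGFR 0 of 43 members changed under PBS, while 0.698% of all genes did. The medians were -0.039 for S phase and 0.024 for G2 and M phase, and E2F1, the transcription factor, had a log2 change of -0.28 (SE 0.12, adjusted p = 0.4). In HaCaT-PIK3CA 0 of 43 changed (0.162% of all genes), with the 19 S phase genes all below 0 at a median of -0.11 and the G2 and M phase median at 0.037. GINS2 had the lowest adjusted p there, with a change of -0.33 (SE 0.094, adjusted p = 0.13). At an unadjusted p under 0.05, 3 members of HaCaT-EGFR and 5 of HaCaT-PIK3CA passed, beside 1846 and 1863 of all 19775 genes.

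The same lines were compared again on the scramble arrays, which are separate from the PBS arrays. In HaCaT-HRAS 6 S phase and 3 G2 and M phase genes were lower (7.93% of all genes), led by GINS2 (-0.85, SE 0.092, adjusted p = 1.7e-10) and TK1 (-0.47, SE 0.064, adjusted p = 9.3e-08). The G2 and M phase genes were CENPE, a kinesin of the kinetochore (-0.44), BIRC5 (-0.43) and CENPF, a kinetochore protein (-0.30). All 6 of these S phase genes, GINS2, TK1, MCM2, MCM3, MCM6 and RRM1, had also fallen under PBS. Of the G2 and M phase genes BIRC5 alone fell in both sets. Of the 43 members 0 changed in HaCaT-EGFR (2.38% of all genes) and 0 in HaCaT-PIK3CA (0.0303% of all genes).

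With the receptor inhibited, genes of both lists fell in HaCaT-Mock and HaCaT-EGFR, and fewer fell in HaCaT-HRAS and HaCaT-PIK3CA. The first comparison sets the 3 inhibitors, averaged, against PBS within a line, which addresses whether the response held with each construct. In HaCaT-Mock 14 of 19 S phase genes fell and 1 rose, and 12 of 24 G2 and M phase genes fell and 1 rose, while 14.2% of all genes fell. In HaCaT-EGFR 14 and 19 fell and none rose (12.8% of all genes fell). In HaCaT-HRAS 2 S phase genes fell, 1 rose and no G2 and M phase gene changed, with 2.2% of all genes lower, and in HaCaT-PIK3CA 10 and 2 fell and 1 of each list rose, with 10.1% of all genes lower.

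In HaCaT-Mock the median change was -0.27 for S phase and -0.24 for G2 and M phase, against 0.0071 over all genes. CDC45, which activates the helicase, had a log2 change of -0.41 (SE 0.047, adjusted p = 3.4e-10). UHRF1, which takes part in copying DNA methylation to new strands, had a log2 change of -0.46 (SE 0.066, adjusted p = 7.3e-08), and CDC6 had a log2 change of -0.45 (SE 0.068, adjusted p = 2.3e-07). Of the mitotic genes AURKA, the Aurora A kinase of spindle poles, had a log2 change of -0.59 (SE 0.099, adjusted p = 2.3e-06), BUB1, a kinase of the spindle checkpoint, -0.42 (adjusted p = 3.9e-05), and CDC20, an activator of the anaphase promoting complex, -0.39 (adjusted p = 0.00022). A pair of genes moved the other way, TK1 at 0.15 (adjusted p = 0.022) and NUSAP1, a spindle microtubule protein, at 0.16 (adjusted p = 0.0072). Neither of these calls held in batch J alone, without the batch E arrays, with no batch term or with the replicate number as a block.

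HaCaT-EGFR had the larger fitted changes, with medians of -0.34 and -0.37 and all 24 G2 and M phase genes below 0. CDC45 had a log2 change of -0.58 (SE 0.055, adjusted p = 4.5e-12), CDC6 -0.68 (SE 0.079, adjusted p = 7.5e-10) and FEN1, the flap nuclease, -0.76 (SE 0.099, adjusted p = 1.5e-08). AURKA had a log2 change of -0.84 (SE 0.12, adjusted p = 6.2e-08), BUB1 -0.64 (SE 0.095, adjusted p = 2.9e-07) and BUB1B, its checkpoint partner BUBR1, -0.59 (adjusted p = 2.1e-06). The member least moved among those of G2 and M was CDC25C, the phosphatase that activates CDK1, at -0.025 (adjusted p = 0.88), and TK1 lay above 0 at 0.058 (adjusted p = 0.59). UHRF1 had a log2 change of -0.53 (adjusted p = 1.5e-07) and TYMS -0.44 (adjusted p = 6.8e-08).

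In HaCaT-EGFR the single arrays separated. CDC6 read 9.34 and 9.30 under PBS, 8.45, 8.40 and 8.27 under afatinib, 8.65, 8.45 and 8.45 under gefitinib and 9.03, 8.92 and 9.14 under cetuximab. AURKA read 10.92 and 10.96 under PBS, 9.98, 9.93 and 9.48 under afatinib, 10.05, 10.02 and 9.67 under gefitinib and 10.39, 10.34 and 10.03 under cetuximab. For both genes every inhibitor array lay below both PBS arrays, and for CDC6 the afatinib and gefitinib arrays also lay below all cetuximab arrays. For AURKA the gefitinib and cetuximab arrays overlap over both batches, but within each batch the gefitinib arrays lay lower. Over the members, all 9 inhibitor arrays lay below both PBS arrays for 11 of 19 S phase genes and 17 of 24 G2 and M phase genes, against 15.5% of all genes. In HaCaT-Mock that held for 5 and 3 genes of the lists, against 8.01% of all genes. The last array of each inhibitor group was in batch M and both PBS arrays were in batch J, and within batch J the medians were -0.36 and -0.37.

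**Figure D1:**
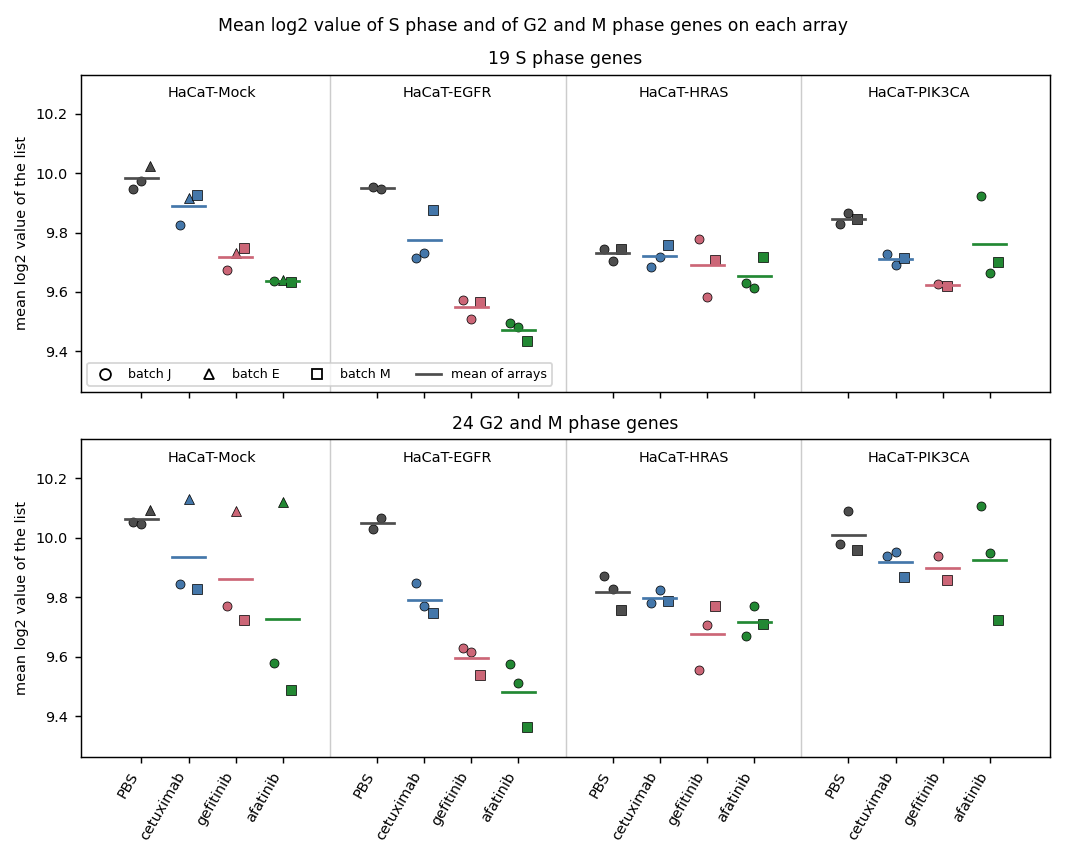
Mean log2 expression value of the S phase members and of the G2 and M phase members on each array, by line and treatment, with the marker giving the batch and a bar at the mean of each group. In HaCaT-EGFR the S phase mean under PBS was 9.95 and 9.95 and under afatinib 9.49, 9.48 and 9.44, and in HaCaT-Mock the batch E arrays of the G2 and M phase panel stay near the PBS arrays, with no PBS array in batch M.

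MKI67, the proliferation antigen Ki-67, read 9.38 and 9.43 under PBS in HaCaT-EGFR and 8.74, 8.71 and 8.34 under afatinib. CDK1 read 11.08 and 11.16 under PBS and 10.28, 10.28 and 9.96 under afatinib. For both genes all 3 afatinib arrays lay below the PBS arrays. TOP2A, the topoisomerase that untangles sister chromosomes, read 11.41 and 11.53 under PBS and 11.02, 11.08 and 10.46 under afatinib. PLK1, the Polo kinase, read 5.95 and 5.76 under PBS and 5.42, 5.38 and 6.31 under afatinib. CCNB1, cyclin B1, read 11.33 and 11.38 under PBS and 10.84, 10.70 and 10.56 under afatinib. TOP2A and CCNB1 were lower on every afatinib array. For PLK1 the groups overlap through the last afatinib array, of batch M, while both batch J afatinib arrays lay below the PBS arrays. RRM2, the regulated subunit of ribonucleotide reductase, read 11.18 and 11.17 under PBS and 10.31, 10.33 and 10.22 under afatinib, and UHRF1 10.44 and 10.40 under PBS and 9.83, 9.83 and 9.84 under afatinib. Again every afatinib array was below both PBS arrays. TYMS read 10.57 and 10.66 under PBS and 10.01, 10.06 and 9.78 under afatinib, and CDC20 10.53 and 10.49 under PBS and 9.92, 9.97 and 10.14 under afatinib, again without overlap. E2F1 read 6.24 and 6.29 under PBS and 5.99, 5.99 and 6.27 under afatinib, and its groups overlap through the last array, of batch M, alone. PLK1 and E2F1 had the lowest means of the 43 members over the HaCaT construct arrays. These means were 6.23 and 6.47, near the median over all genes (6.10).

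Grouped by role, a description with no test, the members in HaCaT-EGFR stood as follows, where 12.8% of all genes fell. Of the 6 subunits of the helicase ring 4 fell (changes of -0.41 to -0.036), and of the 5 genes that load or activate it 4 (-0.72 to 0.013). Of the 4 genes of nucleotide supply 3 fell (-0.59 to 0.058), and of PCNA, FEN1 and UHRF1, which act at forks and on new chromatin, 3 (-0.76 to -0.21). E2F1 had a log2 change of -0.11 (adjusted p = 0.52). In G2 and M, 3 of 5 genes of the cyclins, CDK1 and its phosphatase fell (-0.67 to -0.025), 5 of 6 spindle and checkpoint kinases (-0.84 to -0.32), 3 of 5 kinesins and spindle proteins (-0.34 to -0.099) and 4 of 4 centromere and passenger proteins (-0.42 to -0.30). CDC20 and PTTG1, which time anaphase, had a log2 change of -0.40 and -0.49, and TOP2A and MKI67 -0.35 and -0.48.

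In HaCaT-Mock, where 14.2% of all genes fell, the ring gave 4 of 6 that fell (-0.27 to 0.055), its loaders and activators 4 of 5 (-0.58 to 0.088) and nucleotide supply 3 of 4 (-0.35 to 0.15). Of the cyclins, CDK1 and its phosphatase 2 of 5 fell (-0.33 to 0.12), of the kinases 5 of 6 (-0.59 to -0.071), of the kinesins and spindle proteins 0 of 5 (-0.14 to 0.16) and of the centromere and passenger proteins 2 of 4 (-0.32 to -0.088). In HaCaT-PIK3CA 3 of 6 ring genes and 4 of 5 loaders and activators fell (10.1% of all genes), and in HaCaT-HRAS 0 and 1 (2.2% of all genes). In both of these lines no gene of the cyclins and CDK1, the kinesins or the centromere fell.

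In HaCaT-Mock the lists parted by batch. The S phase mean was 9.95 and 9.97 in the batch J PBS arrays and 10.02 in the batch E PBS array, and under afatinib it was 9.64 in batch J, 9.64 in batch E and 9.63 in batch M. The G2 and M phase mean was 10.05 and 10.05 under PBS in batch J and 10.09 in batch E, and under afatinib 9.58, 10.12 and 9.49 in batches J, E and M. So in batches J and E the S phase mean under afatinib was below that under PBS, while the G2 and M phase mean was below it in batch J alone. HaCaT-Mock has no PBS array in batch M, where the untreated parental HaCaT array had a G2 and M phase mean of 9.49, so the batch M arrays have no control of their own line and batch.

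Within batch J, the median inhibitor response was -0.24 for S phase (16 of 19 below 0) and -0.36 for G2 and M phase (22 of 24). Within batch E it was -0.30 (17 of 19) and -0.0067 (12 of 24). AURKA showed -0.74 in batch J and -0.30 in batch E, and TOP2A -0.23 and 0.41, whereas CDC6 showed -0.47 and -0.53. The difference between the batches was tested in 2 ways, both added after the values were seen. With a batch E term of HaCaT-Mock's own, which sets the 3 inhibitor arrays of batch E against the 1 PBS array there, all 24 G2 and M phase genes lay higher in batch E (median 0.30), but 0 of 24 passed limma's test, and 0 of 19 S phase genes (median -0.057) passed, beside 0.0556% of all genes higher. At an unadjusted p under 0.05, 11 of 24 and 0 of 19 were higher, beside 2.5% of all genes, and of the members named here PTTG1, securin, had the lowest adjusted p (0.40, SE 0.11, adjusted p = 0.21), followed by KIF20A (0.50, SE 0.15, adjusted p = 0.41) and TOP2A (0.56, SE 0.18, adjusted p = 0.47). The second fit used 1 batch E term for all lines. That term is set by the HaCaT-Mock PBS array of batch E and by 3 scramble with PBS arrays of the other lines. The scramble with inhibitor arrays of batch E, 1 per group, add nothing to it. This fit therefore does not equal the gap between the values within the batches. In it 14 of 24 G2 and M phase genes were called higher (median 0.45) and 2 S phase genes higher and 1 lower (median -0.050), against 2.2% of all genes higher. PTTG1 had a log2 change of 0.58 (SE 0.078, adjusted p = 1.7e-06) there, KIF20A 0.73 (SE 0.11, adjusted p = 1.4e-05) and CCNB2, cyclin B2, 0.45 (SE 0.070, adjusted p = 2.5e-05). KIF11, the kinesin that pushes spindle poles apart, took -0.11 in this fit and 0.23 in the first. The calls of the second fit were thus lost with HaCaT-Mock's own batch E term. The other 12 batch E arrays all carry scramble siRNA, and a difference between batches cannot be told apart from one between cultures.

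**Figure D2:**
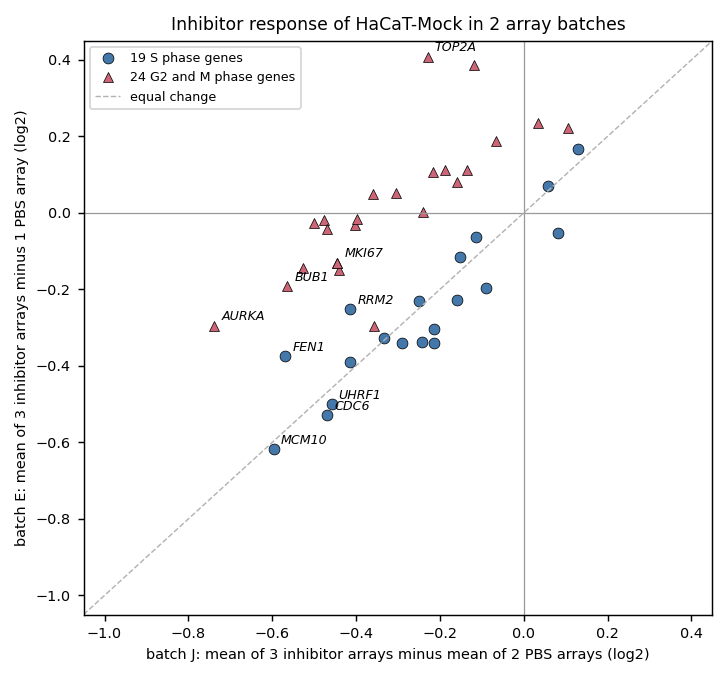
Log2 change of each member with the inhibitors in HaCaT-Mock, batch J on the x axis and batch E on the y axis, 1 point per gene and colour by list. S phase genes lie near the diagonal (medians -0.24 and -0.30), while the median of the G2 and M phase genes is -0.36 in batch J and -0.0067 in batch E.

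In HaCaT-HRAS the S phase median was -0.057 and the G2 and M phase median -0.087. UHRF1 (-0.29, SE 0.065, adjusted p = 0.0034) and MCM10, which steadies the helicase at forks (-0.29, adjusted p = 0.029), fell, and TK1 rose (0.19, adjusted p = 0.018). CDT1, the second loader of the ring, had a log2 change of 0.24 (adjusted p = 0.2). In G2 and M the lowest adjusted p were those of BUB1 (-0.23, adjusted p = 0.08), CDK1 (-0.32, adjusted p = 0.091) and CDC25C (0.17, adjusted p = 0.14). At an unadjusted p under 0.05, 6 of the 24 passed, beside 3639 of all 19775 genes. CDC6 read 9.23, 9.23 and 9.29 under PBS and 9.04, 8.86 and 9.03 under afatinib, and AURKA 10.88, 10.82 and 10.50 under PBS and 10.41, 10.59 and 10.23 under afatinib. The afatinib arrays lay below the PBS arrays for CDC6. For AURKA they overlap with them over both batches, though not within batch J or batch M. The call count rests on few arrays: 1 member in all was called without HaCaT-HRAS PBS 2 or PBS 3, 7 without gefitinib 2 and 8 without gefitinib 3, against 3 with all arrays.

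The response of HaCaT-HRAS was tested against that of HaCaT-Mock directly. The S phase genes lay at or above the HaCaT-Mock response in all 19 cases (median difference 0.18), and 3 passed the test, CDC45 (0.35, SE 0.067, adjusted p = 0.00019), MCM7 (0.36, SE 0.082, adjusted p = 0.002) and MCM3 (0.22, SE 0.070, adjusted p = 0.034), while 4.83% of all genes were higher. The G2 and M phase median difference was 0.081 with 0 of 24 called, AURKA having 0.38 (adjusted p = 0.076). Within batch J the medians were 0.18 and 0.18. Without the 3 arrays in doubt, 9 S phase and 2 G2 and M phase genes were called, but the share of all genes called in that fit was not counted.

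The difference from HaCaT-Mock was 0 of 43 for HaCaT-EGFR (medians -0.13 and -0.21, 0.0708% of all genes changed). NUSAP1 had the lowest adjusted p of the G2 and M phase list there, at -0.26 (SE 0.072, adjusted p = 0.22), so the larger falls in HaCaT-EGFR were not shown to differ from those in HaCaT-Mock. It was 0 of 43 for HaCaT-PIK3CA as well (medians 0.094 and 0.095, 0.142% of all genes), where CDC45 differed by 0.28 (SE 0.067, adjusted p = 0.065). At an unadjusted p under 0.05, 13 and 4 members passed in HaCaT-EGFR and HaCaT-PIK3CA, beside 1405 and 1641 of all 19775 genes.

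In HaCaT-PIK3CA the S phase median was -0.14 and the G2 and M phase median -0.088. UHRF1 (-0.40, SE 0.067, adjusted p = 5.9e-06) and MCM10 (-0.43, SE 0.088, adjusted p = 0.00015) fell and TK1 rose (0.25, adjusted p = 0.00033). AURKA (-0.44, SE 0.10, adjusted p = 0.00064) and BUB1 (-0.24, adjusted p = 0.03) fell, and CDC25C rose (0.21, adjusted p = 0.02). CDC6 read 9.18, 9.27 and 9.20 under PBS and 9.22, 8.78 and 8.81 under afatinib, and AURKA 11.10, 11.05 and 10.72 under PBS and 11.17, 10.55 and 10.05 under afatinib, where the first afatinib array is one in doubt. For both genes the groups overlap. Without the 3 arrays in doubt, 13 S phase and 8 G2 and M phase genes fell, but the share of all genes that fell in that fit was not counted. The total of 14 called members became 7, 6 and 9 without PBS 1, 2 and 3, and 9 without gefitinib 2.

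Taken one by one, afatinib and gefitinib lowered more members than cetuximab in HaCaT-Mock and HaCaT-EGFR. The 3 drugs share the PBS arrays of a line, and their doses differ (10 nM for afatinib, 100 nM for gefitinib and cetuximab). Afatinib lowered 14 and 13 genes of the S phase and the G2 and M phase list in HaCaT-Mock (13.8% of all genes) and 14 and 23 in HaCaT-EGFR (13.7%). Gefitinib lowered 14 and 9 (11.7%) and 14 and 18 (11.6%). Cetuximab lowered 3 and 2 (7.35%) and 6 and 4 (5.93%). The changes under afatinib in HaCaT-EGFR had medians of -0.44 and -0.52, with CDC45 at -0.80 (SE 0.065, adjusted p = 1.8e-14), CDC6 at -0.95 (SE 0.092, adjusted p = 5.2e-12) and AURKA at -1.02 (SE 0.13, adjusted p = 1.9e-08), so that the level of AURKA fell by 50.8%. In HaCaT-Mock the same 3 changes were -0.60, -0.72 and -0.81.

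In HaCaT-HRAS afatinib lowered 2 and 0 genes (1.1% of all genes), gefitinib 4 and 4 (7.62%) and cetuximab 0 and 0 (0.172%). Gefitinib also raised 3 S phase genes, TK1 (0.30), MCM5 (0.36) and CDT1 (0.36), and lowered CDK1 (-0.62, SE 0.14, adjusted p = 0.002), which read 9.44, 10.74 and 10.60 on the 3 arrays, against 10.92, 10.94 and 10.77 under PBS. The lowest of these was the array with an ACTB difference of 3.50, and without the 3 arrays in doubt no member of either list changed with gefitinib in this line. In HaCaT-PIK3CA afatinib lowered 1 and 1 genes (4.12%), gefitinib 9 and 1 (8.66%) and cetuximab 4 and 1 (9.05%). Without the arrays in doubt afatinib lowered 8 and 6 there, with the share of all genes in that fit not counted.

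Averaged over the 4 lines, afatinib lowered 15 and 19 genes (18.1% of all genes), gefitinib 15 and 17 (18.2%) and cetuximab 12 and 9 (14.6%). The drugs were then tested against each other. Under afatinib 13 and 14 genes were lower than under cetuximab (5.75% of all genes), among them CDC6 (-0.39, SE 0.041, adjusted p = 2.4e-10), TYMS, thymidylate synthase (-0.21), BUB1 (-0.25), CCNA2 (-0.22) and MKI67 (-0.20). Under gefitinib 11 and 8 were lower than under cetuximab (4.52%), among them CDC6 (-0.32, SE 0.042, adjusted p = 7.6e-07), MCM10 (-0.28), BUB1B (-0.18) and CDK1 (-0.24). Between the kinase inhibitors afatinib and gefitinib 0 of 43 passed (0.485% of all genes), and the lowest adjusted p in each list were those of TK1 (-0.097, SE 0.033, adjusted p = 0.25) and NUSAP1 (-0.079, SE 0.030, adjusted p = 0.34). At an unadjusted p under 0.05, 6 members passed, beside 1885 of all 19775 genes. A p that misses the threshold does not show that the 2 drugs acted alike.

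**Figure D3:**
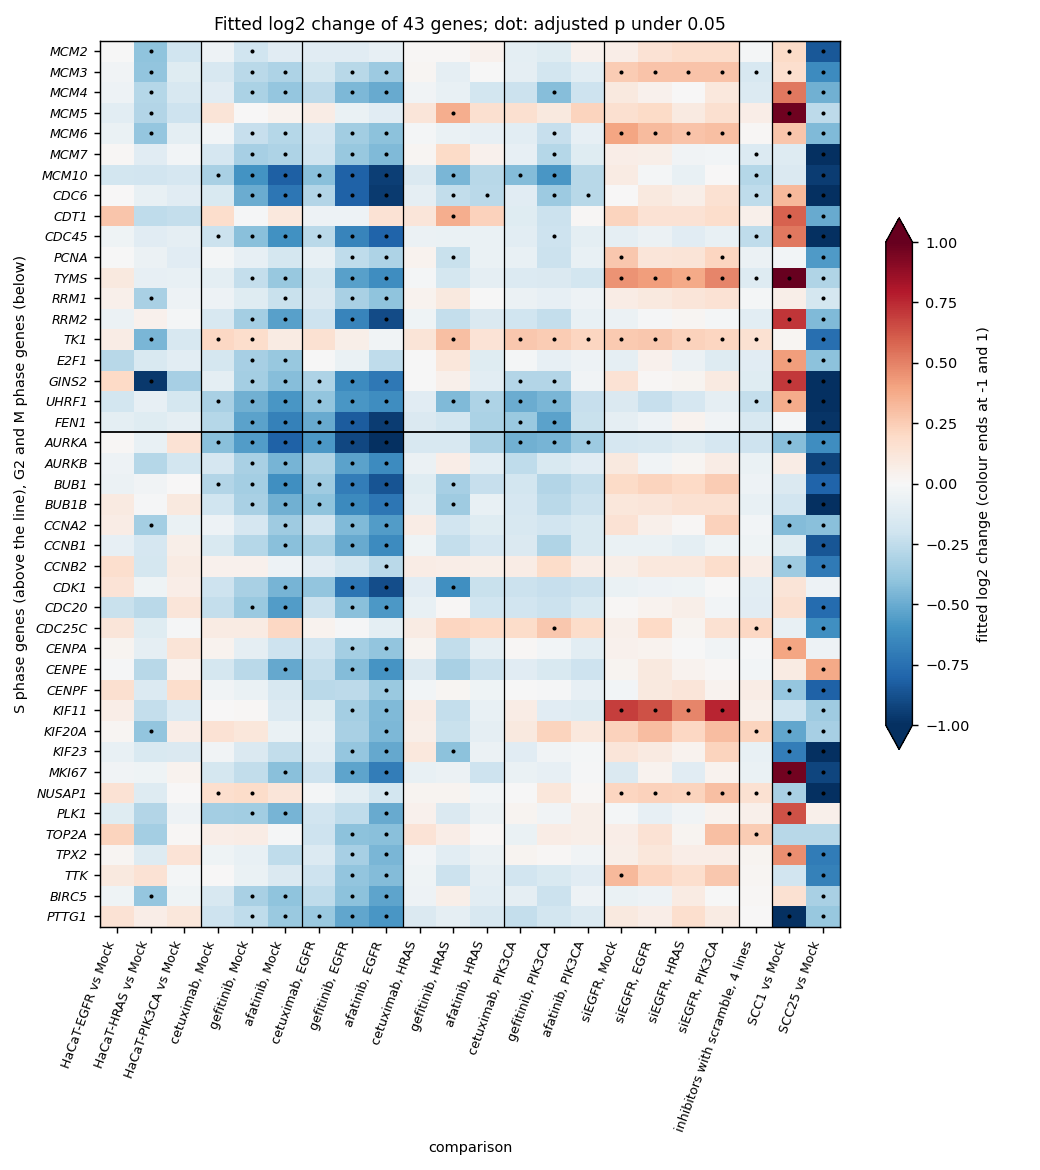
Heat map of the fitted log2 change of the 43 members (rows, S phase above G2 and M phase) in 22 comparisons (columns), with colours ending at -1 and 1 and a dot where the adjusted p was under 0.05. The columns of afatinib and gefitinib in HaCaT-EGFR hold 37 and 32 members that fell, and that of cetuximab in HaCaT-HRAS holds none.

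Genes with the same roles that are not among the 43 were read from further lists, and their counts stand beside 14.2%, 12.8%, 10.1% and 2.2% of all genes lower and 14.5%, 13.6%, 10.2% and 3.81% higher in HaCaT-Mock, HaCaT-EGFR, HaCaT-PIK3CA and HaCaT-HRAS. With the inhibitors, 18 of 34 further replication genes fell and 1 rose in HaCaT-Mock, with CDC25A, the phosphatase of the G1 to S step, at -0.62 (adjusted p = 2.0e-06), and ORC1, of the origin recognition complex, at -0.49 (adjusted p = 4.1e-05). In HaCaT-EGFR 23 fell, in HaCaT-HRAS 2 and in HaCaT-PIK3CA 8. Of 42 further mitosis genes 12 fell in HaCaT-Mock and 26 in HaCaT-EGFR, with 6 in HaCaT-PIK3CA and 0 in HaCaT-HRAS, and HJURP, which loads the centromeric histone, had a log2 change of -0.42 and -0.66 in the first 2 lines. Of 15 genes of the RB family, the DREAM complex and the inhibitors of cyclin-dependent kinases, 4 rose and 4 fell in HaCaT-Mock, 4 and 4 in HaCaT-EGFR, 4 and 2 in HaCaT-PIK3CA and 1 and 0 in HaCaT-HRAS. CDKN2B, p15, rose in all 4 lines, by 2.13 in HaCaT-Mock and 1.52 in HaCaT-EGFR, with 1.65 in HaCaT-PIK3CA and 0.86 in HaCaT-HRAS.

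Differentiation markers moved on the same arrays. Of 11 suprabasal markers 6 rose with the inhibitors in HaCaT-Mock and 6 in HaCaT-EGFR, with 6 in HaCaT-PIK3CA and 0 in HaCaT-HRAS. Of 9 keratinocyte markers 6, 6, 4 and 1 rose in the same order of lines. Of 17 markers of other cell types 4, 3, 4 and 1 rose, beside 14.5%, 13.6%, 10.2% and 3.81% of all genes. Their part in the fall of the cell cycle genes was not tested. Of the repressor genes, CDKN1A, p21, was higher in HaCaT-HRAS than in HaCaT-Mock under PBS, at 1.17 (SE 0.097, adjusted p = 2.0e-14), where 9 of 34 further replication genes and 6 of 42 further mitosis genes were lower, beside 9.34% of all genes.

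The inhibitors were also given with scramble siRNA, on arrays that do not share controls with those above. Over the 4 lines 7 S phase genes fell and 1 rose, while 0 G2 and M phase genes fell and 4 rose (9.05% of all genes fell and 10.3% rose). CDC45 had a log2 change of -0.25 (SE 0.037, adjusted p = 5.1e-07), CDC6 -0.26 (SE 0.053, adjusted p = 0.00018) and UHRF1 -0.24 (SE 0.051, adjusted p = 0.00032), and TK1 rose (0.15, adjusted p = 0.0039). NUSAP1 (0.15, SE 0.037, adjusted p = 0.0018), CDC25C (0.21, SE 0.053, adjusted p = 0.0025), TOP2A (0.25, adjusted p = 0.015) and KIF20A (0.23, adjusted p = 0.033) rose, and AURKA had a log2 change of -0.21 (adjusted p = 0.051). The medians were -0.12 and -0.0054. At an unadjusted p under 0.05, the number of G2 and M phase genes that were lower was 1. Of all 19775 genes, 5698 passed at that threshold in either direction.

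Of the 12 inhibitor arrays with scramble, 9 were in batch E, and the 3 of HaCaT-Mock were in batch J. Within batch E the medians were -0.14 for S phase and 0.025 for G2 and M phase. In batch J, with the 4 HaCaT-Mock arrays alone, they were -0.028 and 0.29, the G2 and M phase mean being 9.91 under PBS, 10.09 under afatinib, 10.10 under gefitinib and 10.23 under cetuximab. These values rest on 1 PBS array, which was low in both lists, with an S phase mean of 9.70. The HaCaT-Mock arrays with scramble alone in batch J had S phase means of 9.93 and 9.93 and G2 and M phase means of 10.15 and 10.09. That PBS array is also the only control used when the batch E arrays are left out. Without the batch E arrays 1 S phase gene fell, 2 rose and 7 G2 and M phase genes rose. So the S phase median was lower in batch E, and the G2 and M phase median lay above 0 in both batches.

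The response without scramble minus that with scramble, a test added after the values were seen, was below 0 for all 24 G2 and M phase genes (median -0.19), and its S phase median was -0.092. It passed for MCM6 (-0.18, SE 0.042, adjusted p = 0.016), FEN1 (-0.30, SE 0.079, adjusted p = 0.037), BUB1 (-0.33, SE 0.076, adjusted p = 0.016) and PTTG1 (-0.27, SE 0.071, adjusted p = 0.033), 2 of each list, while 0.531% of all genes were lower. Most inhibitor arrays without scramble were in batches J and M and most with it in batch E, so over most of these arrays the siRNA and the batch cannot be told apart.

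With EGFR knocked down, more members rose than fell. Against scramble, over the 4 lines, 9 S phase genes rose and 2 fell, and 8 G2 and M phase genes rose and 1 fell, while 14.2% of all genes rose and 14.1% fell. TYMS had a log2 change of 0.43 (SE 0.032, adjusted p = 1.3e-16), MCM6 0.32 (SE 0.027, adjusted p = 1.6e-14) and MCM3 0.27 (SE 0.030, adjusted p = 8.8e-11). KIF11 had a log2 change of 0.64 (SE 0.056, adjusted p = 5.1e-14), NUSAP1 0.24 (SE 0.029, adjusted p = 5.9e-10) and TTK 0.24 (SE 0.048, adjusted p = 5.0e-05). Lower with siEGFR were UHRF1 (-0.16, SE 0.040, adjusted p = 0.0016), CDC45 (-0.083, adjusted p = 0.023) and AURKA (-0.16, adjusted p = 0.044), which had also fallen with the inhibitors in HaCaT-Mock and HaCaT-EGFR. The medians were 0.079 and 0.089 over both lists, 0.10 and 0.087 within batch J and 0.045 and 0.083 within batch M.

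In single lines the counts of S phase and G2 and M phase genes that rose were 5 and 3 in HaCaT-Mock (5.45% of all genes), 4 and 2 in HaCaT-EGFR (4.75%), 5 and 2 in HaCaT-PIK3CA (6.02%) and 4 and 2 in HaCaT-HRAS (3.6%). KIF11 rose in each of these, in that order by 0.69, 0.63, 0.76 and 0.49, and TYMS by 0.45, 0.42, 0.49 and 0.38. The response differed from that of HaCaT-Mock for 0 of 43 members in HaCaT-EGFR (0.0101% of all genes), HaCaT-HRAS (0.0253%) and HaCaT-PIK3CA (0%). No member passed at an unadjusted p under 0.05 in any of these 3 tests. Of all 19775 genes, 640, 945 and 453 did, in the same order of lines.

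The levels place these changes against the untransfected arrays. TYMS read (lowest, median and highest) 10.27, 10.47 and 10.66 on 11 PBS arrays, 10.04, 10.19 and 10.41 on 12 scramble arrays and 10.50, 10.66 and 10.79 on 12 siEGFR arrays. Every siEGFR array was therefore above every scramble array, and the PBS arrays reached into both. KIF11 read 8.90, 9.37 and 9.71 under PBS, 8.44, 9.08 and 9.31 under scramble and 9.07, 9.70 and 10.04 under siEGFR. MCM6 read 10.21, 10.54 and 10.69 under PBS, 10.10, 10.44 and 10.67 under scramble and 10.40, 10.79 and 10.98 under siEGFR. Over both batches the groups of KIF11 and MCM6 overlap, but within each batch every siEGFR array of KIF11 lay above every scramble array (9.31 at most and 9.45 at least in batch J, 8.62 and 9.07 in batch M), and those of MCM6 overlap within each batch as well. RRM2 read 11.17, 11.23 and 11.49 under PBS, 11.50, 11.62 and 11.67 under scramble and 11.47, 11.60 and 11.70 under siEGFR. All scramble arrays of RRM2 lay above all PBS arrays, and the scramble and siEGFR arrays covered about the same range. NUSAP1 read 11.25, 11.48 and 11.66 under PBS, 11.02, 11.32 and 11.57 under scramble and 11.34, 11.55 and 11.78 under siEGFR, and its groups overlap. AURKA read 10.50, 10.92 and 11.29 under PBS, 10.84, 11.16 and 11.28 under scramble and 10.76, 11.02 and 11.12 under siEGFR. The groups of AURKA overlap as well. These overlaps are over all lines together. Within each line and batch, every siEGFR array of MCM6 and NUSAP1 lay above the scramble arrays. For AURKA every siEGFR array lay below the scramble arrays of its own line and batch.

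**Figure D4:**
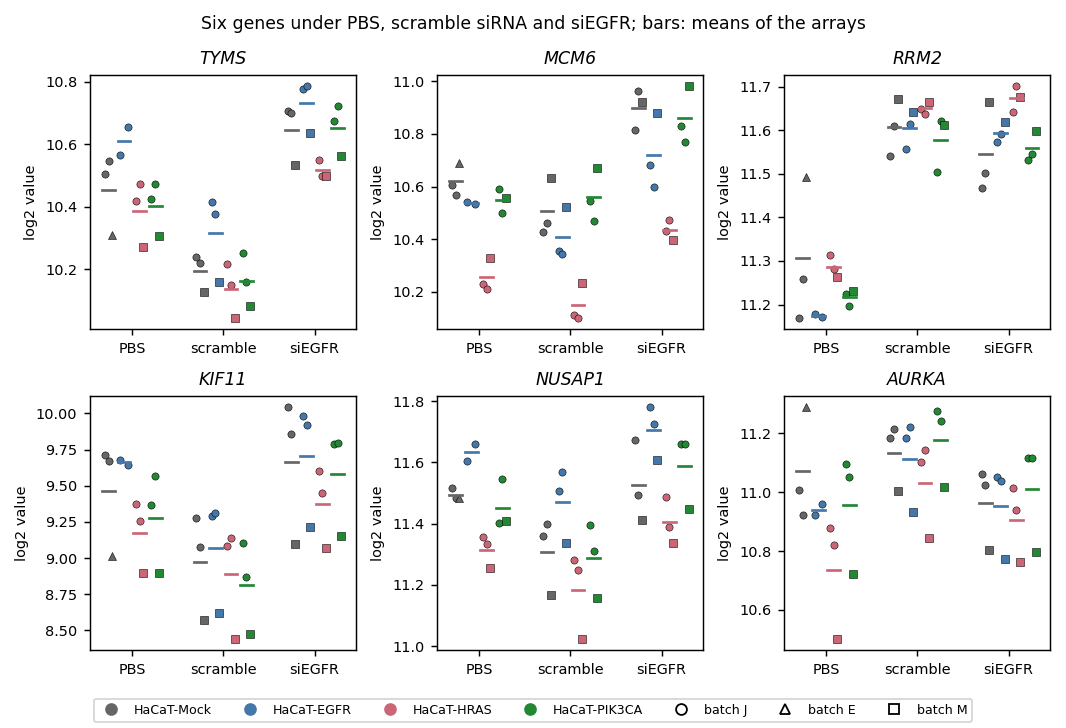
Log2 expression value of TYMS, MCM6, RRM2, KIF11, NUSAP1 and AURKA on each array under PBS, scramble and siEGFR, with colour by line and marker by batch. The medians of TYMS and KIF11 are lowest under scramble, and the median of RRM2 is higher under both siRNAs than under PBS. The 3 groups of AURKA overlap over all lines and batches, though within each line and batch siEGFR lies below scramble.

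Scramble siRNA itself differed from PBS. Over the 4 lines 2 S phase genes were higher and 5 lower, and 9 G2 and M phase genes were higher and 2 lower (13.6% and 13.5% of all genes). RRM2 (0.38, SE 0.046, adjusted p = 2.5e-09) and FEN1 (0.23) rose, TYMS fell (-0.26, SE 0.033, adjusted p = 1.6e-08), PLK1 (0.37), CDC20 (0.34) and MKI67 (0.28) rose, and KIF11 (-0.40, SE 0.059, adjusted p = 2.3e-07) and NUSAP1 (-0.14) fell. A comparison of siEGFR with PBS, added after the values were seen, called 10 S phase genes higher and 1 lower and 16 and 0 G2 and M phase genes (11.2% and 10.8% of all genes), with RRM2 at 0.36, MCM6 at 0.22, KIF20A at 0.44 and CDC20 at 0.36. UHRF1 was the one lower, at -0.11 (adjusted p = 0.039). These 3 comparisons share arrays, so that a low scramble value gives a fall in one and a rise in the next.

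SCC1 and SCC25 lay on either side of HaCaT-Mock in the S phase median, while both lay below it in the G2 and M phase median. Against HaCaT-Mock under PBS, 13 of 19 S phase genes were higher and 0 lower in SCC1, and 4 of 24 G2 and M phase genes were higher and 8 lower (19.9% and 17.5% of all genes). In SCC25 all 19 S phase genes and 19 G2 and M phase genes were lower and 1 was higher (22.7% of all genes were lower). The medians were 0.33 and -0.16 in SCC1 and -0.63 and -0.65 in SCC25, against 0.029 and -0.016 over all genes. Each line has 2 arrays, 1 in batch J and 1 in batch M.

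In SCC1 TYMS (1.01, SE 0.073, adjusted p = 6.6e-18), MCM5 (0.97, SE 0.10, adjusted p = 8.2e-12) and CDC45 (0.53, SE 0.065, adjusted p = 5.7e-10) were higher, and MCM10 had a log2 change of -0.14 (adjusted p = 0.42). MKI67 was higher (0.97, SE 0.12, adjusted p = 5.5e-10), as were PLK1 (0.64), TPX2, an activator of Aurora A (0.46), and CENPA, the centromeric histone (0.40), and PTTG1 (-1.53, SE 0.10, adjusted p = 3.2e-19) and NUSAP1 (-0.32) were lower. In SCC25 CDC45 (-1.14, SE 0.065, adjusted p = 2.2e-22), UHRF1 (-1.53, SE 0.091, adjusted p = 2.0e-21) and MCM7 (-1.12, SE 0.080, adjusted p = 2.3e-18) led the S phase genes. NUSAP1 (-1.06, SE 0.068, adjusted p = 4.0e-20), KIF23, a kinesin of the central spindle (-1.75, SE 0.16, adjusted p = 1.4e-14), and BUB1B (-1.01) led those of G2 and M, and CENPE was higher (0.38, adjusted p = 0.044).

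Directly compared, 19 of 19 S phase genes were higher in SCC1 than in SCC25, and 16 of 24 G2 and M phase genes were higher and 1 lower (23.3% of all genes were higher). UHRF1 read 11.03 and 11.03 in SCC1 and 9.15 and 9.12 in SCC25, with a difference of 1.89. MKI67 read 10.48 and 9.97 in SCC1 and 8.49 and 8.19 in SCC25, with a difference of 1.89 (SE 0.13, adjusted p = 2.3e-19). TYMS read 11.54 and 11.38 in SCC1 and 10.28 and 10.02 in SCC25, and for these 3 genes both SCC1 arrays lay above both SCC25 arrays. PTTG1 was the member lower in SCC1 (-1.15). The median differences were 1.00 for S phase and 0.48 for G2 and M phase, 0.98 and 0.49 within batch J and 1.02 and 0.48 within batch M.

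The list means were 10.32 and 10.33 for S phase in SCC1, 9.29 and 9.22 in SCC25, 9.74 in untreated FaDu, 9.56 in FaDu under PBS and 9.84 in parental HaCaT. For G2 and M phase they were 9.93 and 9.77 in SCC1, 9.49 and 9.28 in SCC25, 9.58 in untreated FaDu, 9.60 in FaDu under PBS and 9.49 in parental HaCaT. FaDu and parental HaCaT have no replicate, and FaDu under PBS is the lone array of batch P, so that treatment and batch cannot be told apart there. Its ACTB difference was 2.65, so RNA quality cannot be told apart from these either. Beside 19.9% and 17.5% of all genes higher and lower in SCC1 and 19.5% and 22.7% in SCC25, of 34 further replication genes 12 were higher and 8 lower in SCC1 and 2 were higher and 26 lower in SCC25. Of 42 further mitosis genes 11 were higher and 9 lower in SCC1, and 0 and 25 in SCC25. Of 9 keratinocyte markers 8 were lower in SCC1, and 5 were higher and 1 lower in SCC25.

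**Figure D5:**
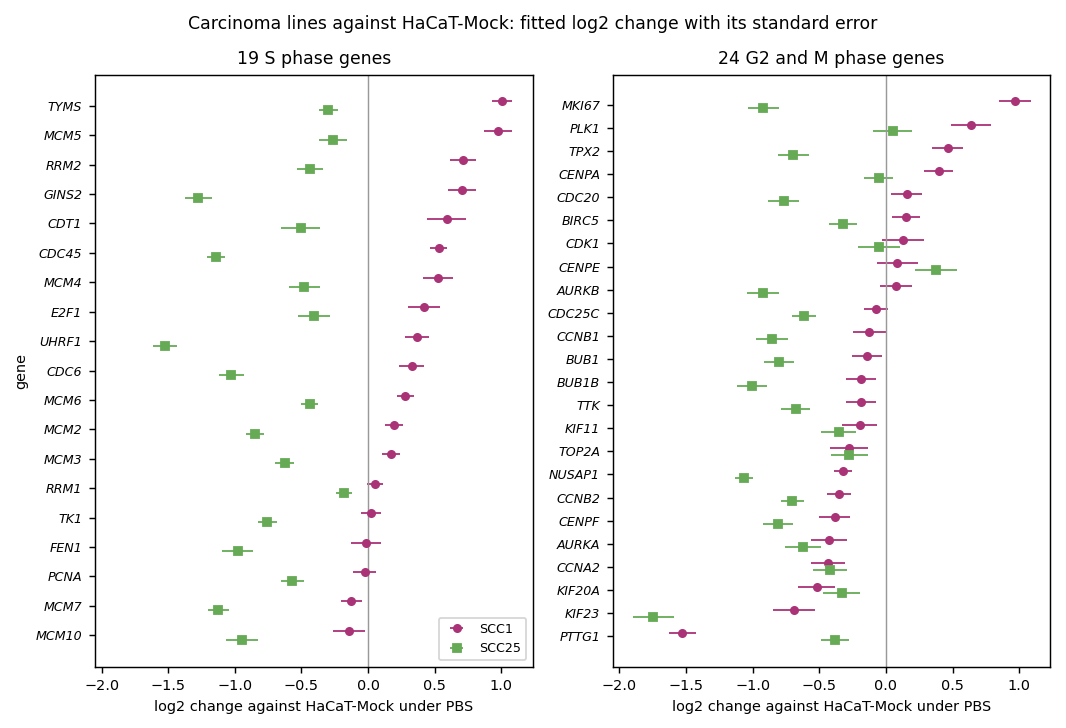
Log2 change against HaCaT-Mock under PBS for each member in SCC1 and SCC25, with bars of 1 standard error, S phase and G2 and M phase genes in separate panels. In SCC25 every S phase gene lies below 0 (median -0.63), and in SCC1 the S phase median is 0.33 while PTTG1 stands at -1.53.

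Members of one list moved together more than members of different lists. Over the 89 HaCaT construct arrays the median Pearson r between 2 S phase genes was 0.36, between 2 G2 and M phase genes 0.50 and between genes of different lists 0.31. After the groups and batches were taken out, the medians were 0.19, 0.45 and 0.063. The arrays share batches and handling, so these are descriptions of covariation. Of 28 members with several probe sets, probe sets of 1 gene took opposite signs of the mean inhibitor change for 7 in HaCaT-Mock and 4 in HaCaT-EGFR, with 9 in HaCaT-PIK3CA and 11 in HaCaT-HRAS.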

How the data were processed

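Gene expression was measured on 96 Affymetrix arrays. The values are the log2 expression values that the authors deposited, with no missing value and a range of 2.65 to 14.5. The study's methods name fRMA normalisation, pSVA batch correction and removal of outlier arrays, and the sources used here do not say how many of those steps had been applied to the deposited log2 values. The submitters' processing notes name affy. Of 54675 probe sets 41097 were paired with 1 gene symbol, 1801 with several and 11777 were not listed in the platform annotation used, and only those with 1 symbol entered. Where a gene had several probe sets, the one highest on average across the 89 HaCaT construct arrays was kept, which gave 19775 genes, 10523 of them with several probe sets. The number of arrays limits the precision.

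Groups were taken from the labels. A linear model of group and batch was fitted to all 89 construct arrays with limma 3.58.1 in R 4.3.3 (47 residual degrees of freedom, shared by all groups), and to 95 arrays for the carcinoma lines. Values are log2 changes with standard errors, p-values were adjusted by Benjamini-Hochberg over all 19775 genes in each comparison, and a gene was called at an adjusted p under 0.05. Tested on simulated data for the inhibitor comparison in HaCaT-EGFR over 19775 genes, the fit recovered 16.4% of genes changed by 0.25 on the log2 scale, 65.7% of those changed by 0.5 and 100% of those changed by 1. Only 67, 67 and 66 genes were changed by these amounts, whereas 26.4% of all genes were called in the real comparison. The adjustment is stricter where few genes change, so these shares are not the sensitivity of the real comparison.

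The 43 members and the further lists were chosen with earlier results of these data known, and the role groups were drawn up for description alone. All members may be named, single-array values were given for 13 of them set by name, and in each comparison the 3 members per list lowest in adjusted p and the one moving most against the list's median were preferred, with up to 2 of each further list. Levels of MCM6, KIF11 and NUSAP1 under siRNA were given after their changes were seen. Alternatives were another choice or the mean of probe sets, no batch term, array weights, batch J alone, the groups compared alone, genes at or above the median, a replicate block, each array left out, leaving out the arrays in doubt or batch E, and a batch E term of HaCaT-Mock's own. Apart from the last, calls under the alternatives were counted for members alone, so no share of all genes stands beside them.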

Additional observations from a re-analysis of the deposited data

Results flagged for a closer look

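Between lines, the inhibitor response of HaCaT-HRAS differed from that of HaCaT-Mock for CDC45 (log2 difference 0.349), MCM7 (0.358) and MCM3 (0.222), each higher in HaCaT-HRAS by a test of the difference itself. Between carcinoma lines, SCC1 and SCC25 differed for 19 of 19 S phase members and 17 of 24 G2 and M phase members, while 42.5% of all genes differed. Between arrays without and with scramble siRNA, the inhibitor response over the 4 lines was lower without it for BUB1 (-0.327), FEN1 (-0.300), PTTG1 (-0.273) and MCM6 (-0.181), a comparison chosen after the values were seen and one in which siRNA and batch cannot be told apart over most arrays. The causes of these differences were not tested.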

How the results depend on the processing

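As reported, the members called were 11 in HaCaT-HRAS and 0 in HaCaT-EGFR and HaCaT-PIK3CA against HaCaT-Mock, 28 with the inhibitors in HaCaT-Mock and 33 in HaCaT-EGFR, with 14 in HaCaT-PIK3CA and 3 in HaCaT-HRAS, 12 with inhibitors and scramble, 20 with siEGFR, 25 in SCC1 and 39 in SCC25. With array weights the construct counts were 21 in HaCaT-HRAS, 4 in HaCaT-EGFR and 3 in HaCaT-PIK3CA, and the inhibitor counts 6 in HaCaT-HRAS and 28 in HaCaT-PIK3CA. With no batch term they were 5 for the HaCaT-HRAS construct, 14, 1 and 5 for the inhibitors in HaCaT-Mock, HaCaT-HRAS and HaCaT-PIK3CA, and 10 for siEGFR. In batch J alone they were 0 and 3 for the inhibitors in HaCaT-HRAS and HaCaT-PIK3CA, 6 for inhibitors with scramble and 12 for siEGFR. With the groups compared alone they were 0 and 0 for the inhibitors in HaCaT-HRAS and HaCaT-PIK3CA and 4 for inhibitors with scramble. For the inhibitors in HaCaT-HRAS the mean of probe sets gave 6 and genes at or above the median 7. Without the 3 arrays in doubt, chosen after seeing the data, HaCaT-PIK3CA had 3 for the construct and 24 for the inhibitors.

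Leaving out 1 array at a time gave 7 to 11 members for the HaCaT-HRAS construct and 0 to 0 for the other 2, 22 to 29 for the inhibitors in HaCaT-Mock, 23 to 34 in HaCaT-EGFR, 6 to 19 in HaCaT-PIK3CA and 1 to 8 in HaCaT-HRAS, 10 to 17 for inhibitors with scramble, 15 to 20 for siEGFR, 21 to 25 in SCC1 and 31 to 37 in SCC25. Choosing probe sets by a deviation ratio turned BUB1 under gefitinib in HaCaT-HRAS to 0.14 and BUB1 under gefitinib minus cetuximab to 0.013, and with no batch term TOP2A with inhibitors and scramble turned to -0.10. The cause was not tested. Of the other changes of single named members over all alternatives, 1851 kept their direction and side of the threshold and 269 kept their direction but lost the call. The labels' replicate numbers did not pair the arrays (correlations of same-numbered deviations from -0.21 to 0.22, median 0.0031, over 190 pairs of groups). With the replicate block the counts were 26, 33, 14 and 3 for the inhibitors in the same order of lines, 11 for the HaCaT-HRAS construct, 11 for inhibitors with scramble, 20 for siEGFR, 26 in SCC1 and 37 in SCC25, and no such total moved by over 1.5 times. Under it the members that rose were 0 in place of 2 with the inhibitors in HaCaT-Mock (TK1 0.15, NUSAP1 0.13), 3 in place of 5 with inhibitors and scramble and 0 in place of 1 in SCC25. Small changes of members may have been missed at this number of arrays.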
